A study of Mus musculus with 7 samples.

Results

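Aquaporins are membrane channels that let water cross cell membranes along osmotic gradients. The 9 genes described here, Aqp1, Aqp2, Aqp3, Aqp4, Aqp5, Aqp7, Aqp8, Aqp9 and Aqp11, were taken by gene symbol from a table of 31274 rows, in which all 9 were found. RNA sequencing was done on whole uteri of untreated CD-1 mice aged 2 months, an outbred stock with no transgene or deletion, at estrus (3 libraries) or diestrus (4 libraries). Values are FPKM, fragments scaled for transcript length and library size, so levels of different genes can be set side by side. The comparison of estrus with diestrus belongs to a study of gene expression through the estrous cycle, in which estradiol peaks before estrus and progesterone prevails at diestrus. Whether the libraries stand for separate animals is not stated, and p-values therefore measure the spread between libraries, which may be technical.

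The family falls into groups by what the channels pass. Aqp1, Aqp2, Aqp4, Aqp5 and Aqp8 are mainly water channels, Aqp3, Aqp7 and Aqp9 are aquaglyceroporins that also pass glycerol, and Aqp11 is a divergent member found in the endoplasmic reticulum. The rodent uterus is known for taking up water under estrogen and for changes in luminal fluid through the cycle, and aquaporins have been studied as channels for both.

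Summed over the 9 genes, aquaporin transcripts stood at 88.2, 118.9 and 112.3 FPKM in estrus replicates 1 to 3, against 149.6, 244.6, 262.0 and 372.4 FPKM in diestrus replicates 1 to 4. The groups did not overlap, with the lowest diestrus library above the highest estrus library. Aqp1 and Aqp5 together made up 90.6% to 95.2% of this sum in estrus and 87.7% to 96.9% in diestrus. Aqp5 held 36.3% to 55.5% of it in estrus and 4.91% to 39.1% in diestrus, while Aqp1 held 35.1% to 57.1% in estrus and 48.6% to 92.0% in diestrus. The ratio of Aqp1 to Aqp5 was 0.916, 0.632 and 1.57 in the estrus libraries and 3.05, 18.7, 1.24 and 2.93 in the diestrus libraries. The 3 aquaglyceroporins together added only 0.877 to 1.35 FPKM in estrus and 0.839 to 1.23 FPKM in diestrus.

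**Figure D1:**
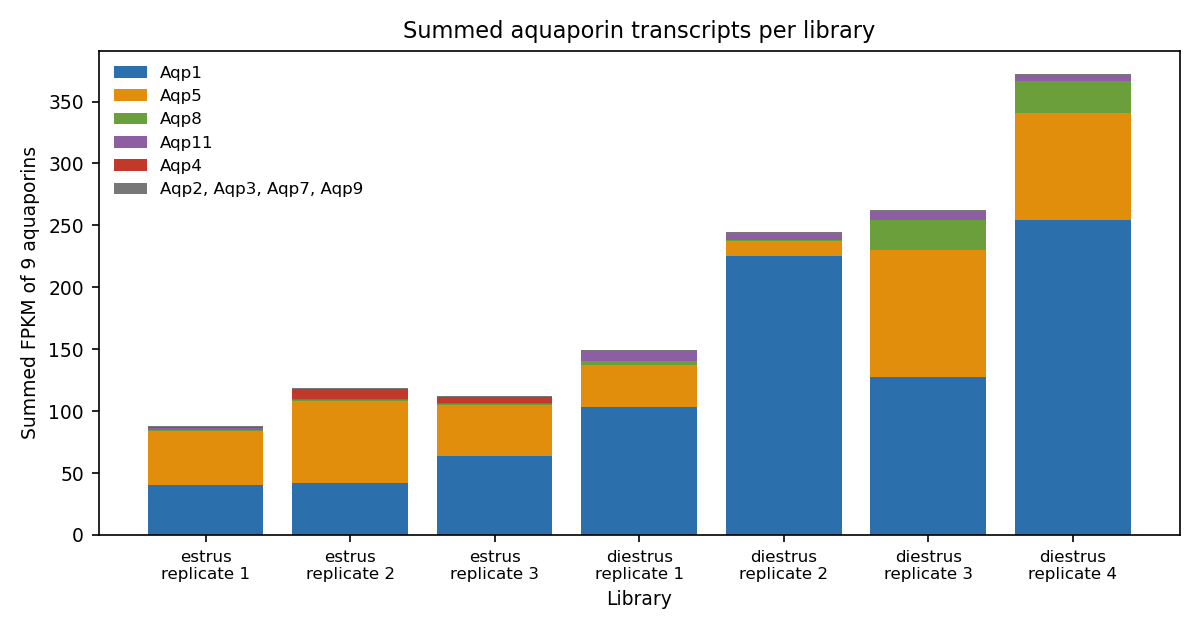
Stacked bars give the FPKM of each aquaporin in each of the 7 libraries, estrus on the left and diestrus on the right. The diestrus bars reach 149.6 to 372.4 FPKM and the estrus bars 88.2 to 118.9, and Aqp1 (blue) and Aqp5 (orange) fill most of every bar.

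Of the 9 genes, 5 had at least 1 FPKM in at least 3 libraries and were tested with limma on log2(FPKM + 1), with Benjamini-Hochberg adjustment over all 13920 tested genes. Aqp4 rose at estrus, Aqp1 and Aqp11 fell, and Aqp5 and Aqp8 did not pass. For the whole table, 31.1% of tested genes passed at an adjusted p under 0.05, with 17.2% higher and 14.0% lower in estrus. These counts say little about the family, because Aqp4 reached the filter through its estrus libraries alone, and Aqp8 and Aqp11 had enough libraries at 1 FPKM in diestrus alone to reach it. Aqp2, Aqp3, Aqp7 and Aqp9 were below the filter.

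**Figure D2:**
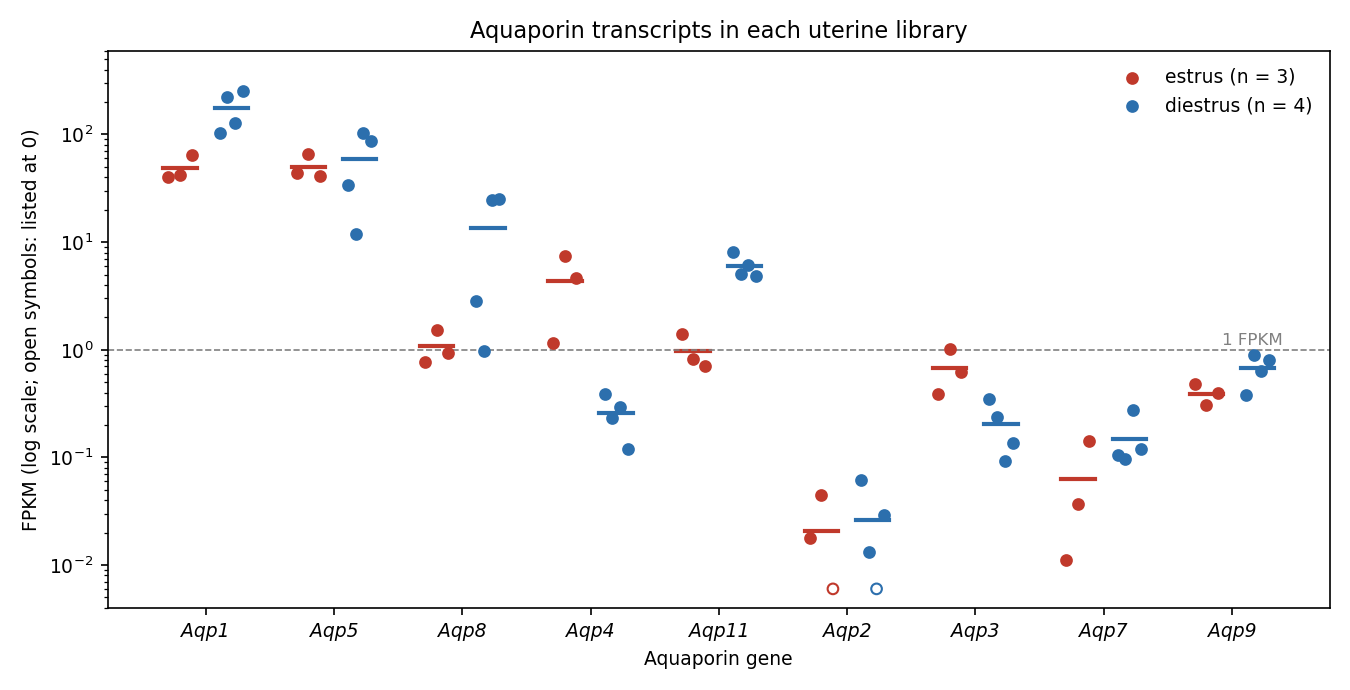
FPKM of the 9 aquaporins on a log axis, with a point per library, a bar at the group mean, and open points for libraries listed at 0. The estrus points (left of each pair) lie below all diestrus points for Aqp1 and Aqp11 and above them for Aqp4 and Aqp3, and overlap for the other 5 genes. Of all tested genes, 40.6% had groups that did not overlap. Aqp3 was below the filter and not among them.

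Aqp1, the classical water channel of red cells and of capillary endothelium, was the aquaporin with the highest mean at diestrus. The gene lies on GRCm38 chromosome 6, 55336299 to 55348555. Its level was 40.1, 41.7 and 64.1 FPKM in estrus replicates 1 to 3, against 103, 225, 127 and 254 FPKM in diestrus replicates 1 to 4. Every estrus library was below every diestrus library. Groups did not overlap at 40.6% of all tested genes, with estrus lower at 18.7% and estrus higher at 21.9%. Mean levels were 48.6 ± 13.4 FPKM (SD, n = 3) in estrus and 178 ± 73.4 (SD, n = 4) in diestrus, so the estrus mean was above that of 86.2% of tested genes and the diestrus mean above that of 98.0%. The log2 fold change was -1.78 (SE 0.34, limma adjusted p = 0.00918), and an exact two-sided permutation test over the 35 ways to divide the libraries gave p = 0.0286, the smallest value these groups allow.

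Markers of some of the cells known to make Aqp1 moved with it in part. Of 10 blood endothelium markers, 9 fell at estrus and none rose, and their summed level was 165 to 209 FPKM in estrus and 277 to 670 FPKM in diestrus. Set against the mean log2 level of these markers in the same library, Aqp1 stood 1.24 to 1.74 above it in estrus and 1.56 to 2.59 above it in diestrus, so the groups overlapped. The endothelium markers differed between estrus and diestrus by -1.17 on average on the log2(FPKM + 1) scale, beside -1.78 for Aqp1. Relative to them Aqp1 differed by -0.61. Relative to smooth muscle, stroma and red cell markers Aqp1 differed by -1.46, -1.15 and -1.48. Against smooth muscle and stroma markers the groups did not overlap, and against red cell markers they did. Red cell markers did not separate the groups, with sums of 359 to 1010 FPKM in estrus and 237 to 1139 FPKM in diestrus and none of 4 tested markers past the test. Mesothelium markers, which were not set against Aqp1 in this manner, summed to 32.1 to 51.0 FPKM in estrus and 51.7 to 109 FPKM in diestrus. Of 4 tested mesothelium markers 2 fell at estrus and none rose, beside 14.0% of all tested genes lower. In whole tissue, fewer cells of a type and less RNA per cell cannot be told apart.

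Aqp11 (chromosome 7, 97726379 to 97738247) fell with the smallest adjusted p of the 5 tested aquaporins. It had 1.41, 0.812 and 0.706 FPKM in estrus replicates 1 to 3 and 8.07, 5.02, 6.07 and 4.88 FPKM in diestrus replicates 1 to 4. The groups were far apart and each was narrow, the highest diestrus library being 1.65 times the lowest. Means were 0.975 ± 0.378 FPKM (SD, n = 3) in estrus and 6.01 ± 1.47 (SD, n = 4) in diestrus, 6.16 times the estrus mean, and the log2(FPKM + 1) fold change was -1.82 (SE 0.20, limma adjusted p = 0.00181; exact permutation p = 0.0286). At this low level the fold change depends on the pseudocount, being -2.53 with 0.1 FPKM added and -0.87 with 5 FPKM added. The uterine epithelium list went the other way, with 10 of 16 markers higher and 1 lower at estrus. Relative to the mean log2 level of those markers, Aqp11 was at -5.85 to -5.41 in estrus and at -2.94 to -2.49 in diestrus.

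Aqp4, best known as the water channel of astrocyte end feet and also found in several epithelia, was the tested aquaporin that rose. It lies on chromosome 18, 15389394 to 15410982, where an antisense gene overlaps it. The files do not say whether reads were counted by strand, so the reads of that pair cannot be told apart. Aqp4 stood at 1.17, 7.37 and 4.63 FPKM in estrus replicates 1 to 3, against 0.386, 0.234, 0.294 and 0.119 FPKM in diestrus replicates 1 to 4. All estrus libraries were above all diestrus libraries, but estrus replicate 1 was several times below the other 2. Means were 4.39 ± 3.11 FPKM (SD, n = 3) in estrus and 0.258 ± 0.112 (SD, n = 4) in diestrus, a ratio of 17.0. The log2(FPKM + 1) fold change was 1.90 (SE 0.41, limma adjusted p = 0.0140; exact permutation p = 0.0286). It depends on the constant added before taking logs, being 3.37 with 0.1 and 0.78 with 5. The epithelium markers were also higher at estrus, with sums of 3483 to 4030 FPKM in estrus and 1064 to 1489 FPKM in diestrus. Relative to their mean log2 level, Aqp4 was at -5.56 to -3.64 in estrus and -5.39 to -5.01 in diestrus, which overlap. At 0.119 to 0.386 FPKM, the diestrus values of Aqp4 were close to the lowest that log2(FPKM + 1) allows. The overlap therefore depends on the constant added and cannot show whether Aqp4 changed with the markers or beyond them.

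**Figure D3:**
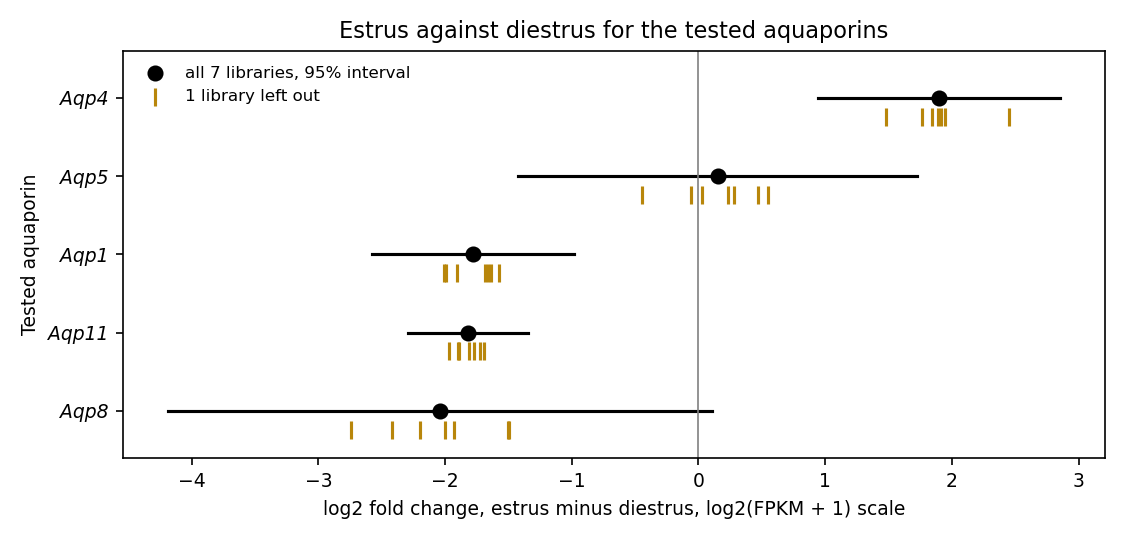
Black points give the log2 fold change of the 5 tested aquaporins, as estrus minus diestrus in log2(FPKM + 1), with limma's 95% interval as a line. Gold ticks give the value with each library left out. For Aqp4, the 3 fits without an estrus library used the genes of the full filter. That set holds Aqp4 only through its estrus libraries, so these 3 ticks add no support to its rise. The intervals of Aqp4 (0.94 to 2.85), Aqp1 (-2.58 to -0.98) and Aqp11 (-2.30 to -1.35) leave out 0, and those of Aqp5 and Aqp8 include it.

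Aqp5, the apical water channel of secretory glands such as the salivary glands, was abundant in both phases but differed widely among the diestrus libraries. Its gene lies on chromosome 15, 99591028 to 99594829. It had 43.8, 66.0 and 40.8 FPKM in estrus replicates 1 to 3, against 33.9, 12.0, 102.6 and 86.7 FPKM in diestrus replicates 1 to 4. Diestrus replicates 1 and 2 were below all estrus libraries and diestrus replicates 3 and 4 above them. Means were 50.2 ± 13.8 FPKM (SD, n = 3) in estrus and 58.8 ± 42.8 (SD, n = 4) in diestrus. The log2 fold change was 0.15 with a 95% interval of -1.42 to 1.73 (limma adjusted p = 0.880; exact permutation p = 0.886), an interval that holds changes of more than 2-fold in either direction. Its sign turned negative under quantile normalization (-0.02), without estrus replicate 2 (-0.06) and without diestrus replicate 2 (-0.45).

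Aqp8, a water channel that also conducts hydrogen peroxide and ammonia, divided the diestrus libraries in the same manner. The gene lies on chromosome 7, 123462294 to 123468003. It had 0.765, 1.54 and 0.941 FPKM in estrus replicates 1 to 3, against 2.84, 0.968, 24.8 and 25.3 FPKM in diestrus replicates 1 to 4. Diestrus replicate 2 lay within the estrus range, diestrus replicate 1 somewhat above it and diestrus replicates 3 and 4 more than 10 times above it, a 26.2-fold range within the phase. Means were 1.08 ± 0.406 FPKM (SD, n = 3) in estrus and 13.5 ± 13.4 (SD, n = 4) in diestrus. The log2 fold change of -2.04 (SE 0.93) did not pass (limma adjusted p = 0.126; exact permutation p = 0.200). Without diestrus replicate 2 it was -2.74, with a limma adjusted p of 0.0391. The epithelium markers summed to 1294, 1082, 1489 and 1064 FPKM in diestrus replicates 1 to 4. Single markers differed from that sum in either direction. The keratin gene Krt18 had 213, 162, 376 and 305 FPKM in those libraries and Krt7 had 97.7, 83.4, 152 and 126 FPKM. Both, like Cldn4, were higher in replicates 3 and 4 than in 1 and 2. Krt19 went the other way, with 195, 152, 97.2 and 85.1 FPKM, as did Krt8, Elf3, Foxa2 and Wnt7a. The remaining markers did not divide the libraries in this manner. The part of the epithelium markers in the Aqp8 values was not tested.

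**Figure D4:**
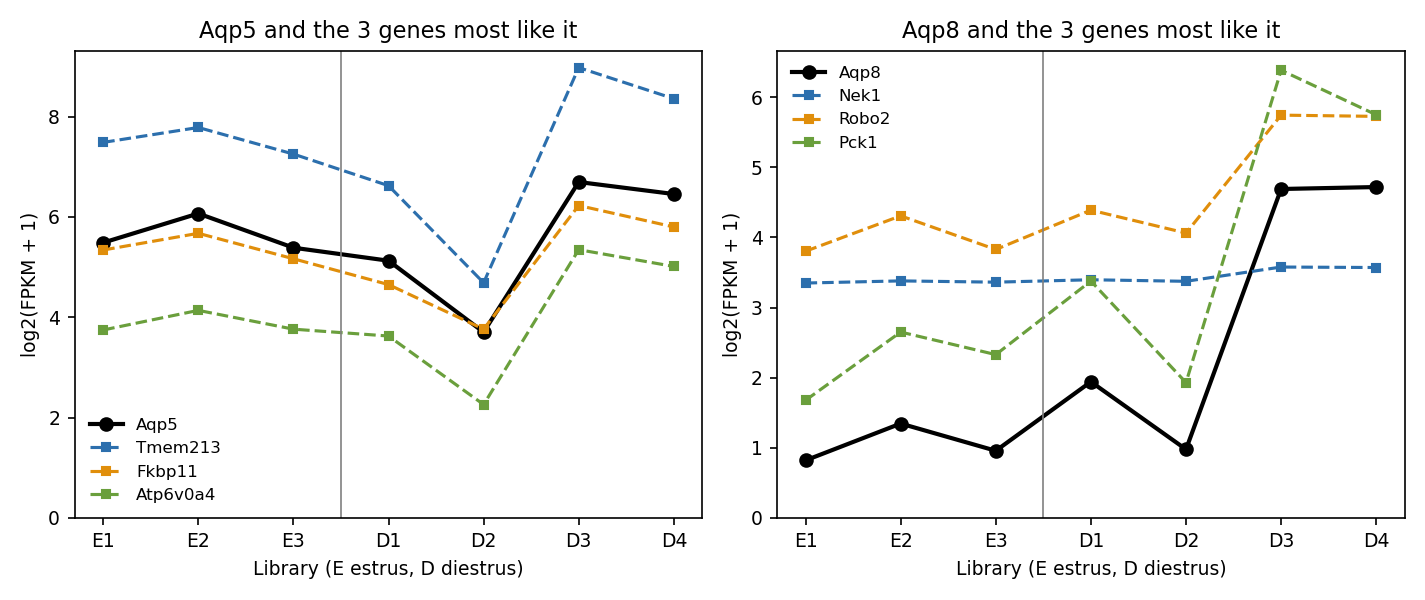
Lines give log2(FPKM + 1) of Aqp5 (left) and Aqp8 (right) and of the 3 genes most like each, over estrus replicates 1 to 3 (E1 to E3) and diestrus replicates 1 to 4 (D1 to D4). Diestrus replicates 3 and 4 are the highest libraries for Aqp5 and Aqp8, and diestrus replicate 2 is the lowest for Aqp5; lines are not scaled, so Nek1 shares the shape of Aqp8 with a far smaller range.

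Genes most like each tested aquaporin were looked for among 9644 annotated genes averaging 5 FPKM or more, by Pearson's r of log2(FPKM + 1) over the 7 libraries. These values describe likeness in the same libraries, partly set by the difference between phases, and carry no test. For Aqp5 they were Tmem213 (r = 0.990, Spearman's rho = 1), the prolyl isomerase gene Fkbp11 (r = 0.985, rho = 1) and Atp6v0a4, a subunit of the vacuolar proton pump (r = 0.980, rho = 0.964). Tmem213 had 178, 219 and 151 FPKM in estrus and 97.5, 24.7, 502 and 327 FPKM in diestrus replicates 1 to 4, with the same order of libraries as Aqp5. For Aqp8 they were the kinase gene Nek1 (r = 0.995), the guidance receptor gene Robo2 (r = 0.992) and Pck1, which encodes a key enzyme of gluconeogenesis (r = 0.989), with rho of 0.964, 0.964 and 0.929. Pck1 had 2.20, 5.28 and 4.02 FPKM in estrus and 9.40, 2.81, 82.6 and 52.8 FPKM in diestrus replicates 1 to 4. Nek1 matched in shape alone, ranging only from 9.19 to 9.41 FPKM in estrus and 9.37 to 10.9 FPKM in diestrus.

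Aqp11 was most like Gli1, a transcription factor and target of hedgehog signalling (r = 0.994, rho = 1), the tight junction gene Cldn8 (r = 0.992, rho = 0.929) and Igdcc4 (r = 0.992, rho = 0.929). Gli1 had 4.47, 2.04 and 1.66 FPKM in estrus, against 34.4, 23.3, 25.7 and 15.5 FPKM in diestrus, again in the same order of libraries as Aqp11. Aqp1 was most like Marveld1 (r = 0.996, rho = 1) and the protease inhibitor gene Cst3 (r = 0.996, rho = 0.964), which had log2 fold changes of -0.60 and -1.07. Aqp4 was most like the imprinted, retrotransposon-derived gene Peg10 (r = 0.996, rho = 0.964), the zinc transporter gene Slc30a9 (r = 0.989, rho = 0.786) and Cbl (r = 0.981, rho = 0.964). Peg10 had 4.50, 16.6 and 11.6 FPKM in estrus and 1.89, 1.80, 1.65 and 1.42 FPKM in diestrus, with estrus replicate 1 lowest of the estrus libraries, as for Aqp4.

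The aquaporins below the filter were close to the floor of the table. Aqp3, the basolateral water and glycerol channel of skin, kidney and airway epithelia (chromosome 4, 41092724 to 41098183), had 0.390, 1.01 and 0.619 FPKM in estrus replicates 1 to 3, against 0.350, 0.237, 0.0919 and 0.135 FPKM in diestrus replicates 1 to 4. Its groups did not overlap, but estrus replicate 1 and diestrus replicate 1 were close together, and in a limma fit with no filter its adjusted p was 0.0542. Aqp3 is also known in the stratified epithelium of vagina and cervix. Markers of that epithelium summed to 10.8, 28.2 and 14.5 FPKM in estrus replicates 1 to 3. In diestrus replicates 1 to 4 they summed to 9.01, 17.9, 12.1 and 13.8 FPKM. Estrus replicate 2 was highest for both these markers and Aqp3, and the estrus libraries had the same order. In diestrus the markers were highest in replicate 2 and Aqp3 in replicate 1. None of 3 tested markers passed, and the part of these markers in the Aqp3 values was not tested.

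Aqp9, the glycerol channel of hepatocytes (chromosome 9, 71110659 to 71167849), had 0.306 to 0.476 FPKM in estrus and 0.384 to 0.894 FPKM in diestrus, and an antisense gene overlaps it too. Aqp7, the channel by which fat cells release glycerol (chromosome 4, 41033074 to 41048237), had 0.0111 to 0.141 FPKM in estrus and 0.0969 to 0.273 FPKM in diestrus. Fat cell markers summed to 9.82 to 74.6 FPKM in estrus and 46.7 to 236 FPKM in diestrus, and diestrus replicate 3 was highest for both these markers and Aqp7. Aqp2, the vasopressin-regulated channel of the kidney collecting duct (chromosome 15, 99579056 to 99584545), was at most 0.0444 FPKM in estrus and 0.0621 FPKM in diestrus and was listed at 0 in estrus replicate 3 and diestrus replicate 3. Adjusted p values for Aqp9, Aqp7 and Aqp2 in the limma fit with no filter were 0.152, 0.268 and 0.855.

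Aqp2 and Aqp5 lie in tandem with 6482 bases between them. Aqp7 and Aqp3 are neighbours as well, 44486 bases apart. Beyond the aquaporins, the closest protein-coding genes are Faim2 and Racgap1 around the first pair and Nfx1 and Nol6 around the second. Faim2 had 0.314 to 0.676 FPKM in estrus and 0.288 to 1.51 in diestrus. Racgap1, a regulator of cytokinesis, had 42.3, 36.6 and 10.5 FPKM in estrus and 11.3, 19.2, 6.07 and 5.59 FPKM in diestrus (limma adjusted p = 0.0967). Nfx1 and Nol6 did not pass either (limma adjusted p = 0.104 and 0.916). Nfx1 had 21.6 to 27.4 FPKM in estrus and 26.3 to 35.2 FPKM in diestrus, and Nol6 had 16.6 to 22.9 FPKM in estrus and 17.2 to 23.2 FPKM in diestrus.

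The promoter sequences of 4 aquaporins are shown to set Aqp1 and Aqp11, which fell at estrus, beside Aqp5 and Aqp8, which divided the diestrus libraries. They run 5′ to 3′ on the strand of the gene, 250 bases before to 50 bases after the RefSeq start site in GRCm38.p6, with capitals at matches to the motifs named after them.
Aqp1 promoter, chr6:55336049-55336348, plus strand: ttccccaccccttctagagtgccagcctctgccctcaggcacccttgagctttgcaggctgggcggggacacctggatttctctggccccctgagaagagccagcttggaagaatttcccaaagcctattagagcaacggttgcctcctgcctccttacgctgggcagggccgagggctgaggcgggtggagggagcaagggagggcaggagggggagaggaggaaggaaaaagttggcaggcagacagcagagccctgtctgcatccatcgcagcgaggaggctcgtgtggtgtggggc
Aqp11 promoter, chr7:97738198-97738497, minus strand: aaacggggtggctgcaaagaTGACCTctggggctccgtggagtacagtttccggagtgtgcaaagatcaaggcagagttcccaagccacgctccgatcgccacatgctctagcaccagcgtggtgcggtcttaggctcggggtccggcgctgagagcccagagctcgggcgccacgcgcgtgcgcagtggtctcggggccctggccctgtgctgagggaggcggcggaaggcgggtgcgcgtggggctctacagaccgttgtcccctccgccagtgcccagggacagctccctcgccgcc
Aqp5 promoter, chr15:99590778-99591077, plus strand: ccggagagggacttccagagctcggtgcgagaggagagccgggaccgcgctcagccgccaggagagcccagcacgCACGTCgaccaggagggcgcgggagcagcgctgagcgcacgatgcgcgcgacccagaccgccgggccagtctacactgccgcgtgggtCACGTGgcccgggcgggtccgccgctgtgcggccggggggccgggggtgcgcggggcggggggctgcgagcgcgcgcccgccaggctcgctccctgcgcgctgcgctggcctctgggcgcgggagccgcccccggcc
Aqp8 promoter, chr7:123462044-123462343, plus strand: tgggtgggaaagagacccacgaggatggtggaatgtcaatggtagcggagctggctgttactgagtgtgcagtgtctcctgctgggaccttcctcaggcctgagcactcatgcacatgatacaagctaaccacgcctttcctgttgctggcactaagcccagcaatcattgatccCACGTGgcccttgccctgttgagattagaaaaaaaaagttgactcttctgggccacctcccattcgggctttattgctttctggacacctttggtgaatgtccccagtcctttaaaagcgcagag

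Both strands were searched for the estrogen response palindrome (GGTCA and TGACC with any 3 bases between them), the estrogen receptor hexamer AGGTCA, the progesterone receptor hexamer AGAACA, the TATA box TATAAA, the E-box CACGTG and the hypoxia hexamer GACGTG. The palindrome was in none of the promoters of the 8 aquaporins with a sequence (all but Aqp4), and in 0.0700% of all 32851 promoters. Aqp11 held AGGTCA on the minus strand (TGACCT as printed) at -230 to -225 from the start site, a hexamer present in 16.3% of promoters. Aqp7, at the floor of the table, held that hexamer in both of its promoter sequences. AGAACA was in promoters of Aqp2, Aqp7 and Aqp9 (19.0% of promoters) and TATAAA in that of Aqp3 (13.6%), all genes below the filter. Aqp5 and Aqp8 each held CACGTG, at -87 to -82 and -75 to -70, which 7.15% of promoters hold, and Aqp2, at the floor of the table, held it at -58 to -53. Aqp5 also held the hypoxia hexamer, found in 6.38% of promoters, as CACGTC at -175 to -170. Aqp1 held none of the motifs. GC content was 79.7% for Aqp5, 68.0% for Aqp11, 62.7% for Aqp1 and 52.0% for Aqp8, against a median of 52.7%. A match is a description of the letters and not of binding.

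**Figure D5:**
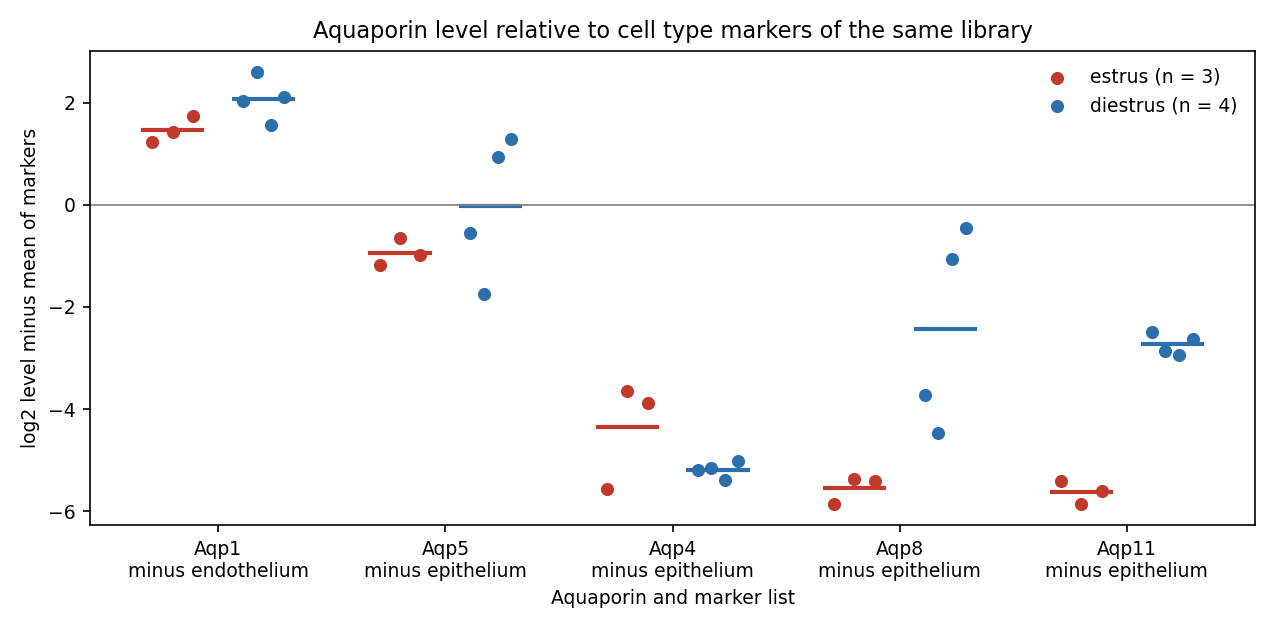
Each point is a library's log2(FPKM + 1) of an aquaporin minus the mean log2(FPKM + 1) of 10 blood endothelium markers (Aqp1) or 16 uterine epithelium markers (the others), with bars at group means. Estrus and diestrus points are apart for Aqp8 and Aqp11 and overlap for Aqp1, Aqp5 and Aqp4. Aqp4 was under 1 FPKM in every diestrus library, near the floor of this scale, so its overlap depends on the constant added. The subtracted epithelium markers were on average 1.07 higher at estrus, and the FPKM of Aqp8 itself overlapped between the groups.

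Relative to epithelium markers, Aqp8 was at -5.85 to -5.36 in estrus and -4.47 to -0.46 in diestrus, and Aqp5 at -1.19 to -0.64 in estrus and -1.75 to 1.28 in diestrus. The epithelium markers were on average 1.07 higher at estrus on the log2(FPKM + 1) scale, so that Aqp5, whose own difference was 0.15, was 0.92 lower relative to them at estrus (a difference of -0.92).

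Genes that work with aquaporins were described from 5 lists. Of 79 tested genes in all, 21 rose and 11 fell at estrus, or 40.5% called beside 31.1% of all tested genes, and the median log2 fold change was 0.19 beside 0.05 for all tested genes. Under median-ratio scaling 18 rose and 14 fell, and under quantile normalization 12 rose and 16 fell. Over all tested genes, 2393 rose and 1943 fell in the first count, 2002 and 2190 under median-ratio scaling and 1687 and 1920 under quantile normalization. Without estrus replicate 2, 9 of the partner genes rose and 1 fell, in a fit that called 1433 of 13770 tested genes, or 10.4%.

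Glycerol is the other cargo of Aqp3, Aqp7 and Aqp9. Of 11 tested genes of glycerol and triglyceride handling, 4 rose and 1 fell, or 45.5% beside 31.1% of all tested genes. The counts were the same under both rescalings. The median log2 fold change was 0.36 beside 0.05 for all tested genes. Gpd1, the cytosolic glycerol 3-phosphate dehydrogenase, had 25.1, 26.1 and 28.9 FPKM in estrus, against 7.59, 7.11, 9.66 and 5.01 FPKM in diestrus (log2 fold change 1.76, limma adjusted p = 0.00167). Gpd2, its mitochondrial counterpart, and Gpd1l rose by 1.47 and 1.17, and the glycerol kinase gene Gyk rose by 0.76. Mgll, which releases glycerol from monoglycerides, fell by 0.87. With single libraries left out, 3 to 5 of the list rose and 0 to 3 fell, in fits that called 10.4% to 38.5% of all tested genes.

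Ion transport sets the osmotic gradients that aquaporins follow. Of 21 tested genes of that list 5 rose and 5 fell, or 47.6% beside 31.1% of all tested genes. The median log2 fold change was 0.04, and with either rescaling of the libraries 3 rose and 5 fell. Without estrus replicate 2, where 10.4% of all tested genes were called, 2 rose and 1 fell, or 14.3% of the list. The chloride channel gene Cftr had 37.9, 51.3 and 50.9 FPKM in estrus and 6.70, 8.41, 2.51 and 1.36 FPKM in diestrus (log2 fold change 3.25, limma adjusted p = 0.00356). The potassium channel gene Kcnn4 rose by 2.89 and the sodium pump subunit gene Atp1b3 by 0.71. The chloride channel gene Ano1 fell by 1.43.

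Among 14 tested genes of osmotic stress and cell volume, 3 rose and none fell, namely the inositol transporter gene Slc5a3 (1.81), the volume-regulated anion channel subunit gene Lrrc8d (0.78) and the amino acid transporter gene Slc38a2 (0.62). These are 21.4% of the list beside 31.1% of all tested genes. Under quantile normalization 2 rose and 2 fell, and under median-ratio scaling 3 rose and 1 fell. Lrrc8b, next by p-value, had a log2 fold change of 0.74 and a limma adjusted p of 0.0610. Without estrus replicate 1 none of the list passed, in a fit that called 19.1% of all tested genes. Of 16 tested genes of vasopressin signalling and aquaporin trafficking, 3 rose and 3 fell, or 37.5% beside 31.1% of all tested genes. Under quantile normalization none rose and 4 fell, and under median-ratio scaling 2 rose and 3 fell. The fusion protein genes Vamp2 and Snap23 went opposite ways, Vamp2 falling by 0.66 and Snap23 rising by 0.50, while Dtna and the kinase anchor gene Akap7 fell by 0.93 and 0.71. Without estrus replicate 2, where 10.4% of all tested genes were called, none of that list passed.

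Some aquaporins, Aqp3 and Aqp8 among them, are known to conduct hydrogen peroxide. Of 17 tested genes that make or remove it, 6 rose and 2 fell, or 47.1% beside 31.1% of all tested genes. Under quantile normalization 3 rose and 4 fell, under median-ratio scaling 6 rose and 4 fell, and without estrus replicate 2, where 10.4% of all tested genes were called, 3 rose and none fell. The thioredoxin reductase gene Txnrd1 had 151, 178 and 138 FPKM in estrus and 68.6, 71.3, 48.3 and 38.3 FPKM in diestrus, and the glutathione peroxidase gene Gpx1 and the oxidase subunit gene Cyba rose by 1.34 and 0.84. Nox4, an oxidase that makes peroxide, fell by 0.73 from a low level, with 0.376 to 0.546 FPKM in estrus and 1.09 to 1.77 FPKM in diestrus.

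Library depth is not recorded in FPKM, and the spacing of the lowest values gave relative depths of 0.92 to 1.21 in estrus and 1.06 to 1.36 in diestrus, with estrus replicate 1 set to 1. First principal component scores were -59.9 to -47.0 for the estrus libraries, against 11.3 for diestrus replicate 1 and 36.3 to 61.9 for diestrus replicates 2 to 4, so diestrus replicate 1 was the nearest to estrus. Markers of the layers of the uterus were all found, with sums of 2923 to 3936 FPKM in estrus and 2487 to 4552 FPKM in diestrus for stroma and of 3362 to 5913 FPKM in estrus and 3182 to 7810 FPKM in diestrus for smooth muscle, beside the epithelium sums above. Without diestrus replicate 1 the aquaporin counts were again 1 higher and 2 lower.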

How the data were processed

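RNA from whole mouse uteri had been purified with RNeasy columns and DNase and made into Illumina TruSeq libraries, per the labels' protocols. The authors deposited FPKM with a column per library. TopHat2 2.0.4 and the build mm10 (GRCm38) are named in the submitters' processing notes with no role. How the FPKM were computed, with which annotation and whether by strand, is not given in the sources used here. Each column carries a sample's description, and titles gave the groups.

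FPKM are not counts, so limma 3.58.1 (R 4.3.3) was run on log2(FPKM + 1) for genes reaching 1 FPKM in 3 or more of the 7 libraries, with an intensity trend, two-sided, at a Benjamini-Hochberg threshold of 0.05. This scale understates changes of genes near 0. Fits were tested on simulated data. Single genes were also tested by an exact permutation over all 35 divisions of the libraries. Alternatives were pseudocounts of 0.1 and 5, no filter, a stricter filter (mean of 5 FPKM or more), median-ratio and quantile scaling, no trend, robust moderation, library weights (gene-by-gene, because the default did not converge), leaving out single libraries, and the replicate number as a block.

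The aquaporins, the 5 partner lists, the marker lists and the motifs were chosen with earlier results of these data known. The text names the aquaporins, up to 4 genes of each list by smallest p, the 3 genes most like each tested aquaporin (for Aqp1, 1 of them is not reported here), their chromosome neighbours, Esr1 and Pgr. Mgll, the fifth of its list, was added after its value was seen. Coordinates and promoters are from RefSeq on GRCm38.p6, overlapping genes from GENCODE M21. Figures were drawn with matplotlib 3.10.9.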

Additional observations from a re-analysis of the deposited data

Results flagged for a closer look

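In 51 sets of 4 diestrus values (the 9 aquaporins, their sum and the other named genes), a library was called apart where its gap to the nearest other library, divided by the range, was above Dixon's 95% critical value for 4 samples. About 1 set in 20 is called by chance. Aqp7 in diestrus replicate 3 was 0.273 FPKM against 0.0969 to 0.121 in the other 3 (gap 0.864 of the range). Gpd1l was highest in diestrus replicate 1, at 29.0 FPKM against 21.9 to 22.9 (gap 0.856), and Gpx1 was lowest there, at 212 FPKM against 319 to 335 (gap 0.869). Pgr, the progesterone receptor gene, was highest in diestrus replicate 1, at 109 FPKM against 29.3 to 42.6 (gap 0.834).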

How the results depend on the processing

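Aqp1 and Aqp11 kept their direction and passed in all alternatives in which they were tested, with adjusted p up to 0.0488 and 0.0146, and so did Aqp4 (up to 0.0488), which was not tested when an estrus library was left out and the filter applied anew, or with a mean of at least 5 FPKM, a filter that also removed Aqp11. The counts of higher and lower aquaporins, 1 and 2, were 0 and 1 with that filter and were 0 to 1 and 2 to 3 over the fits that each leave out 1 library. Fits without an estrus library that kept the full set of genes, added after the data were seen, gave 1 and 2 throughout, with 2753 changed genes without estrus replicate 1 and 1574 without estrus replicate 2. Aqp4 is in that set only through its 3 estrus libraries, the omitted one included. These fits therefore add no support to the count of 1 higher or to the rise of Aqp4. Aqp5 had a log2 fold change of -0.022 under quantile normalization, -0.059 without estrus replicate 2 and ran from -0.45 to 0.55 without single libraries. Aqp8 passed with library weights (-2.49, adjusted p = 0.0157) and ran from -2.74 to -1.50 without single libraries, passing without diestrus replicate 2 only. The 4336 changed genes became 8113 with library weights and 2281 with the replicate block, and ran from 1433 (without estrus replicate 2) to 5311 (without diestrus replicate 1). Partner genes that rose numbered 12 under quantile normalization and 10 with the replicate block, and ran from 9 to 25 without single libraries; those that fell numbered 21 with library weights and 6 with the block, and ran from 1 to 16. With the block none of the vasopressin and trafficking genes passed, against 3 higher and 3 lower without it. Replicate number 4 occurs in diestrus only, so the block took that library out of the comparison. Its fold changes equalled those without diestrus replicate 4 (-1.58 for Aqp1 and -1.50 for Aqp8 in either fit). The cause of the other shifts was not tested.

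Estrus and diestrus libraries share replicate numbers 1 to 3, but the labels do not say that these pair animals, so they were not taken as pairs. Deviations of same-numbered libraries correlated at 0.20, 0.02 and 0.17, and those of differently numbered libraries at -0.33 to 0.27. The block left the aquaporin counts at 1 and 2. FPKM hold no read counts, so no counting error can be given for the aquaporins under 1 FPKM.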

Other observations

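Other rows of the aquaporin family in the table were close to 0. Aqp6, which follows Aqp5 on chromosome 15 after 3638 bases, was at most 0.0167 FPKM and above 0 in 2 libraries, Aqp12 was at most 0.0214 FPKM, and Mip, the lens aquaporin gene, was listed at 0 in all 7 libraries. Esr1, the estrogen receptor alpha gene, had 99.4, 120 and 131 FPKM in estrus and 115, 78.6, 98.7 and 85.0 FPKM in diestrus replicates 1 to 4, so diestrus replicates 3 and 4, where Aqp5 and Aqp8 were highest, did not stand apart from the other diestrus libraries. Pgr had 64.0, 92.6 and 89.0 FPKM in estrus and was lowest in those 2 diestrus libraries, at 33.8 and 29.3 FPKM, next to 42.6 FPKM in diestrus replicate 2.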
